A study of Mus musculus with 24 samples.

Results

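A set of 10 calcium-binding, galectin and contractile genes was followed through the developing mouse cortex and through short cultures of its progenitors: the S100 genes S100a6, S100a10 and S100a11, the annexins Anxa2 and Anxa5, the galectins Lgals1 and Lgals3, and the actin-linked genes Tagln2, Myl12a and Tpm1. They were taken by symbol from a table of 54658 genes, and all 10 were found in it. The set was chosen by measured values, those of the genotype effects in 24 h cultures and in E14.5 cortex and of the difference between them, in which S100a6 and Myl12a stood out. The other 8 genes were grouped with them. Every difference that involves the 24 h or the E14.5 libraries, including those between culture and cortex and between ages, shares libraries with that choice and is given for the 10 genes as a description with no test. The genotype effect in E11.5 cortex rests on libraries of other embryos and was tested. That at 12 h of culture was tested too, but S100a6 was picked as a gene raised in culture. The 12 h cultures also came from the same embryos as the 24 h cultures, so the 12 h test is not independent of the choice.

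The study compared embryos without functional Cep135, a protein of the centriole, with wild-type embryos. The 24 libraries came from 12 embryos of Cep135 (+/-) matings. At E11.5 the dorsal telencephalon of 3 Cep135 (-/-) embryos (mutants A, B and C) and 3 Cep135 (+/+) embryos (controls D, E and F) was taken. At E14.5 the dorsal telencephalon of mutants 1, 2 and 6 and of controls 3, 4 and 5 was taken. Litters are not named in the labels and were read from the prefixes of the sample titles. A and D share 1 prefix, B, C, E and F another, although a second label of B and C spells it differently, and all E14.5 embryos share yet another. Age and that prefix cannot be told apart. Neural progenitors of these same 6 E14.5 embryos were grown in suspension with EGF and FGF2 as incipient neurospheres, the small floating clusters that dividing progenitors form, for 12 and 24 h. Each of the 8 groups thus held 3 libraries. The mutant allele was made by genome editing and carries a short exonic deletion that gives a premature stop, in every cell of the embryo. The 3′ read tags of Cep135 lie outside that deletion and do not check the labels. Its normalized read count ran from 171 to 375 in the 12 control libraries and from 173 to 336 in the 12 mutant libraries.

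S100 proteins are small calcium sensors of the EF-hand type, and annexins bind acidic membrane lipids when calcium is present. The 2 families meet physically: S100A10 pairs with annexin A2 at the cell cortex, where the complex links membrane to actin. Galectins bind galactose-containing sugar chains on cell surfaces and matrix. Tagln2 encodes transgelin 2, an actin-binding protein, Myl12a encodes a regulatory light chain of non-muscle myosin II, whose phosphorylation turns on contraction, and Tpm1 encodes a tropomyosin that coats actin filaments. Several genes of this kind are textbook targets of SRF with its actin-sensing partners MRTF-A and MRTF-B, of YAP with TEAD factors, or of AP-1, which respond to cytoskeletal tension, adhesion and growth factors. Mesenchyme, meninges and vessel walls express many of them at high levels.

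The 3 S100 genes lie on chromosome 3 within 2.952 Mb in GRCm38: S100a6 at chr3:90612882-90624181, S100a11 at chr3:93520488-93526287 and S100a10 at chr3:93555080-93564643, all on the plus strand. The others are dispersed, with Tagln2 at chr1:172500047-172507380, Anxa2 at chr9:69453620-69491795, Lgals1 at chr15:78926725-78930465 and Lgals3 at chr14:47367751-47386160 on the plus strand, and Anxa5 at chr3:36448923-36475894, Tpm1 at chr9:67022590-67049406 and Myl12a at chr17:70993656-71002878 on the minus strand. Myl12a is followed by its near-identical neighbour Myl12b, and 462 exonic bases of Myl12a are also annotated as exon of a gene named Myl12b on the same strand, so reads there could have been left uncounted or given to either gene. RefSeq promoter windows of 250 bases before to 50 bases after the start site were at hand for 8 of the 10 genes, all but S100a10 and Lgals1. They were searched on both strands for the AP-1 motif TGANTCA, the TEAD motif GGAATG and the CArG box of SRF (CC, then 6 of A or T, then GG), and no match overlapped another. AP-1 matched in 3 of the 8 windows (S100a11, Anxa2 and Myl12a) and in 7.81% of all 32851 promoters, TEAD in 3 of 8 (Tagln2, Tpm1 and Myl12a) and 14.7%, and the CArG box in 1 of 8 (Anxa5) and 1.63%. The S100a6 and Lgals3 windows held none of these letters. The stretches that carry the AP-1 letters in S100a11 and Anxa2, and the S100a6 stretch without them, follow from RefSeq on GRCm38.p6, 5′ to 3′ on the plus strand, each starting 150 bases before the start site and ending before the first annotated exon, with the AP-1 letters in capitals.
S100a11, chr3:93520346-93520487: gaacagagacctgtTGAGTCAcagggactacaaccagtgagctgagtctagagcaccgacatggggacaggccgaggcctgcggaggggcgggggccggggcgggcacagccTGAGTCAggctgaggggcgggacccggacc
Anxa2, chr9:69453533-69453619: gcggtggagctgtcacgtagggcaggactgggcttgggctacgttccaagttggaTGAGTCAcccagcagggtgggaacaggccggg
S100a6, chr3:90612744-90612881: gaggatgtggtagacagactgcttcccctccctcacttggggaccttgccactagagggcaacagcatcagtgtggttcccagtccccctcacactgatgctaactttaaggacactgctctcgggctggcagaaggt
In S100a11 the AP-1 letters start 136 and 38 bases before the start site, in Anxa2 95 bases before it and in Myl12a 137 bases before it. A match of letters is a description and does not show binding.

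In the 23 libraries whose whole reads were recovered, 4732781 to 11645213 reads fell on genes. The cortical libraries held the markers of apical progenitors, intermediate progenitors and neurons that dorsal telencephalon should hold, with summed neuronal markers of 7224 to 10587 normalized read counts at E11.5 and 28333 to 37868 at E14.5. They also held other cells. The sum of 8 mesenchyme and meninges markers was 2525 to 8808 at E11.5, 1776 to 2936 at E14.5 and 208 to 441 in the cultures, and the sum of 8 endothelial markers fell in range from 969 to 1474 in cortex to 19.2 to 110.3 in culture. The sum of 6 choroid plexus markers did not overlap between genotypes in culture: 1111 to 3869 in controls and 4810 to 16314 in mutants at 12 h, and 896 to 3652 and 5094 to 17077 at 24 h. At 24 h the read totals did not overlap either, 4732781 to 5709443 in controls and 7903426 to 11645213 in mutants, nor did the share of reads on Gm42418, a gene that overlaps ribosomal RNA, at 6.26 to 13.9% and 20.5 to 23.05%. These are bulk libraries, in which fewer cells of a type and less RNA per cell cannot be told apart.

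S100a6 was at similar levels in all cortical groups of E14.5 and in E11.5 controls, and stood highest in the mutant cultures. In E11.5 cortex its normalized read count was 97.7, 122 and 122 in controls D, E and F and 166, 192 and 148 in mutants A, B and C. At E14.5 it was 126, 99.4 and 128 in controls 3, 4 and 5 and 80.2, 132 and 108 in mutants 1, 2 and 6. The 2 genotypes were apart at E11.5 and overlapped at E14.5. After 12 h of culture it was 209, 218 and 197 in controls and 406, 887 and 532 in mutants, in the same order of embryos. After 24 h it was 115, 211 and 134 in controls and 408, 1126 and 583 in mutants. Every mutant culture exceeded every control culture, and mutant 2 was the highest at both times. By group mean and SD (n = 3) the order ran from mutants at 24 h (706 ± 374) and 12 h (608 ± 250) to controls at 12 h (208 ± 10.9), mutants at E11.5 (168 ± 22.1), controls at 24 h (153 ± 50.8), controls at E14.5 (118 ± 15.96), controls at E11.5 (114 ± 14.04) and mutants at E14.5 (107 ± 26.2). The largest step in this order lay between the mutant cultures and all other groups. The 2 mutant culture groups differed by less than their SDs, as did the 3 lowest groups.

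The choroid plexus markers moved beside S100a6 in the cultures. Mutant 2, with the highest S100a6, also had the highest marker sum at both times (16314 and 17077), and in mutant 2 Ttr, the transthyretin gene that defines choroid plexus epithelium, was 15693 at 12 h and 16344 at 24 h. Among the controls, embryo 4 had the highest sum (3869 and 3652) and the highest S100a6 at both times (218 and 211). Mutant 6 had a lower marker sum than mutant 1 and more S100a6 at both times. In E14.5 cortex the arrangement was different: mutant 1 had the highest sum of that stage (7860) and the lowest S100a6 (80.2), and mutant 6 had a sum of 893 and an S100a6 count of 108. At 12 h 3 of the 5 tested choroid plexus markers were higher in mutants without overlap, and at 24 h 5 of 5; Kl was listed at 0 in all mutant cultures. The part of choroid plexus cells in the S100a6 values was not tested.

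**Figure D1:**
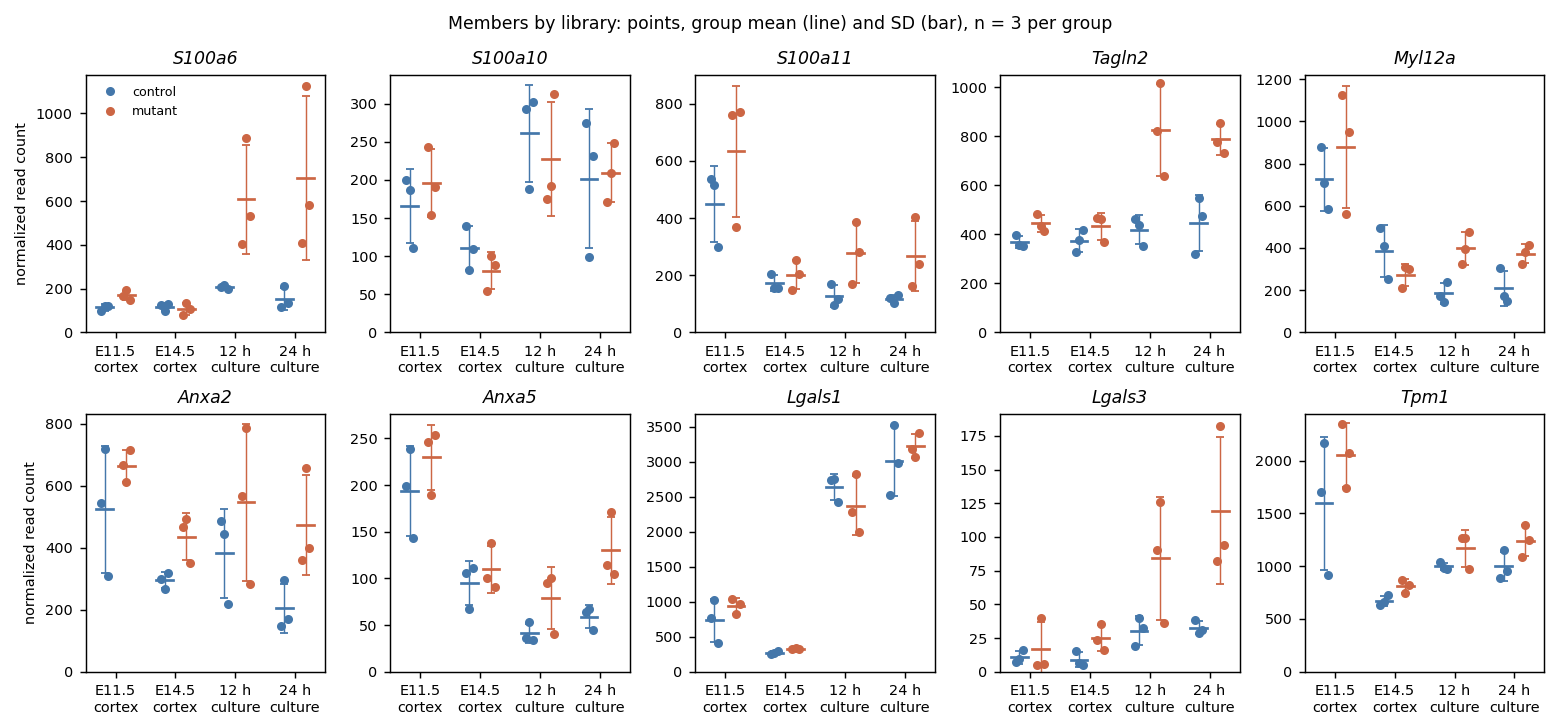
Normalized read count of each gene (linear axis from 0) in the 24 libraries, by stage and genotype, with points for libraries, a line for the group mean and a bar for the SD (n = 3). S100a6 stands between 406 and 1126 in the 6 mutant cultures and between 80.2 and 218 in all other libraries, while Lgals1 is at 2001 to 3520 in the 12 cultures of both genotypes.

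Of the other S100 genes, S100a10 did not share the pattern of S100a6, and S100a11 shared it in part, with higher means in mutant cultures. S100a10, the annexin A2 partner, ran from 110 to 243 at E11.5, from 54.2 to 140 at E14.5 and from 99.4 to 313 in the cultures. Controls and mutants overlapped at every stage. S100a11, which binds annexin A1, was 538, 516 and 298 in E11.5 controls and 762, 370 and 772 in E11.5 mutants. At E14.5 its 6 values lay between 149 and 253. In culture the controls lay between 95.1 and 170 and the mutants between 164 and 404, with the groups apart at 24 h and overlapping at 12 h.

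Of the annexins, Anxa2 was 308 to 718 in E11.5 controls and 611 to 716 in E11.5 mutants. At E14.5 it was 299, 267 and 319 in controls and 465, 491 and 351 in mutants, and at 24 h it was 147, 295 and 171 in controls and 360, 657 and 399 in mutants. Both of these pairs of groups were apart, while at 12 h the ranges of 218 to 484 and 284 to 787 overlapped. Anxa5, the phosphatidylserine binder used to stain dying cells, was 143 to 254 at E11.5 and 67.5 to 138 at E14.5. In the cultures it was 34.2 to 67.4 in controls and 40.3 to 171 in mutants, apart at 24 h only.

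The 2 galectins differed in which samples held them. Lgals1 encodes galectin 1, a galectin made by adult neural stem cells. It was 766, 1026 and 406 in E11.5 controls and 1036, 818 and 973 in E11.5 mutants. At E14.5 it was 246, 268 and 293 in controls and 329.7, 332 and 323 in mutants. Both stages lay far below the cultures, where it was 2001 to 3520 over all 12 libraries with overlapping genotypes at 12 and 24 h. Lgals3 encodes galectin 3, abundant in macrophages and microglia, and was the sparsest gene, at 5.16 to 40.2 in cortex. In culture it was 18.9 to 39.9 in controls and 35.8 to 182 in mutants. Its mutants were all above its controls at E14.5 and at 24 h. The sum of 8 microglial markers was likewise higher in mutants without overlap at E14.5, at 839 to 1069 against 434 to 536 in controls. In culture that sum was 18.8 to 42.5 in controls and 6.31 to 20.5 in mutants at 12 h, and 17.8 to 62.5 and 6.98 to 63.8 at 24 h. Its median was lower in mutants at both times, while Lgals3 had the higher means there. The part of microglia in the Lgals3 values was not tested.

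Among the actin-linked genes, Tagln2 came nearest to S100a6. It was 395, 355 and 354 in E11.5 controls and 483, 435 and 415 in E11.5 mutants. At E14.5 it was 326, 378 and 418 in controls and 466, 464 and 369 in mutants. The genotypes were apart at E11.5 and overlapped at E14.5. At 12 h it was 464, 438 and 352 in controls and 821, 1016 and 638 in mutants, and at 24 h 321, 546 and 473 in controls and 776, 855 and 732 in mutants. In culture no mutant value lay within the control range.

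Myl12a had its highest values in the youngest cortex. It was 881, 707 and 586 in E11.5 controls and 1127, 559.9 and 951 in E11.5 mutants, and 495, 411 and 253 in E14.5 controls and 211, 308 and 298 in E14.5 mutants. The genotypes overlapped at both ages. At 12 h it was 173, 142 and 239 in controls and 322, 395 and 477 in mutants, and at 24 h 304, 174 and 149 in controls and 324, 379 and 416 in mutants. The control cultures were the low groups here, and the mutant cultures lay above them without overlap. Myl12b, whose reads may be shared with Myl12a, was 143 to 267 in the 12 h controls and 135 to 172 in the 12 h mutants. At 24 h Myl12b was 214, 244 and 198 in controls and 173, 194 and 164 in mutants. There it was lower in mutants without overlap, opposite to Myl12a. The part of shared reads in the Myl12a values was not tested. Tpm1 ran from 920 to 2343 at E11.5, from 631 to 869 at E14.5 and from 890 to 1386 in culture.

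At E11.5 the question was whether Cep135 loss shifts these genes before any culture. All 10 had a higher mean in mutants, by 0.09 to 0.56 on the log2 scale of normalized read count + 1, and none passed the test. S100a6 differed by 0.56 (SE 0.16, adjusted p = 0.585 by limma with Benjamini-Hochberg adjustment over 13406 genes) and Tagln2 by 0.27 (SE 0.12, adjusted p = 0.669 by limma). The 2 were the only members whose mutants all lay above all controls, which 7.16% of all genes did, and the only ones with an unadjusted p under 0.05. Over all genes limma called 2 genes (0.0149%), neither in any list used here, with 991 genes at an unadjusted p under 0.05. Within title prefixes the S100a6 difference was 0.76 for the pair A and D and 0.46 for B and C against E and F, and that of Tagln2 was 0.29 and 0.26. The second of these is a value within 1 litter only if the differing spelling is a slip.

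Control F bears on the other members at E11.5. It had the lowest value of its group for S100a10, S100a11, Myl12a, Anxa2, Anxa5, Lgals1 and Tpm1. For Tagln2 it was also the lowest, at 354 against 355 in control E. Its sum of mesenchyme and meninges markers was 2525, against 6423 and 7148 in controls D and E. Mutant B was the low mutant for that sum, at 4292, against 8808 and 7501 in A and C. Without control F the genotype difference was 0.08 for Anxa2, 0.06 for Anxa5, 0.08 for Lgals1, 0.09 for Tpm1 and -0.01 for S100a10. Myl12a was then at 0.10, S100a11 at 0.19, Tagln2 at 0.24, Lgals3 at 0.40 and S100a6 at 0.61. The choroid plexus sum was also apart at E11.5, at 835 to 958 in controls and 1115 to 1191 in mutants, where Otx2 made up most of it. The part of mesenchyme in these values was not tested.

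At 12 h of culture the mutants had more S100a6, Myl12a, Tagln2, S100a11 and Lgals3 by their means, but no member passed the test. The difference was 1.47 for S100a6 (SE 0.26, adjusted p = 0.603 by limma), 1.12 for Myl12a (SE 0.25, adjusted p = 0.723 by limma), 0.96 for Tagln2 (SE 0.21, adjusted p = 0.723 by limma), 1.09 for S100a11 (SE 0.33) and 1.32 for Lgals3 (SE 0.52). These 5 genes had an unadjusted p under 0.05, and S100a6, Tagln2 and Myl12a had no overlap between genotypes, which 5.09% of all genes showed in that direction. Over all 13389 genes limma called 0 (0.0%), with 650 at an unadjusted p under 0.05, edgeR called 0 and DESeq2 called 9. The call depended on the method. DESeq2 on recovered reads called S100a6 (adjusted p = 0.000171) and Tagln2 (adjusted p = 0.0129), and edgeR called neither (adjusted p = 0.632 and 0.791). A limma fit on all 24 libraries together called both (adjusted p = 0.0343 and 0.0294). That fit took libraries of the same embryo as independent and drew on the E14.5 and 24 h libraries behind the choice. Its p-values therefore do not rest on independent embryos. Under every method the 12 h test is not independent of the choice of genes, as given above. S100a6 and Tagln2 were the 2 of 10 members with mutants above controls at both E11.5 and 12 h, a pattern held by 0.606% of the 12208 genes tested at both. Besides choroid plexus, the marker sums of endothelium (71.2 to 94.7 against 27.3 to 68.1) and of intermediate progenitors (2005 to 2237 against 1719 to 1839) were higher in the 12 h mutants without overlap, and their part in these values was not tested.

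Lgals1, S100a10 and Tpm1 differed little between genotypes at 12 h. Lgals1 differed by -0.17 (SE 0.15), S100a10 by -0.22 (SE 0.28) and Tpm1 by 0.22 (SE 0.16). Anxa2 and Anxa5 differed by 0.48 (SE 0.36) and 0.84 (SE 0.45). The RNA showed mutants 1 and 2 as female and mutant 6 and all 3 controls as male, and with a term for sex the difference became 0.29 for Lgals3 (SE 0.59), 0.00070 for Anxa5 (SE 0.52), -0.34 for Anxa2, 0.29 for S100a10 and -0.04 for Tpm1. It was 1.35 for S100a6, 0.62 for Tagln2 and 1.40 for Myl12a. The part of sex in these values was not tested further.

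**Figure D2:**
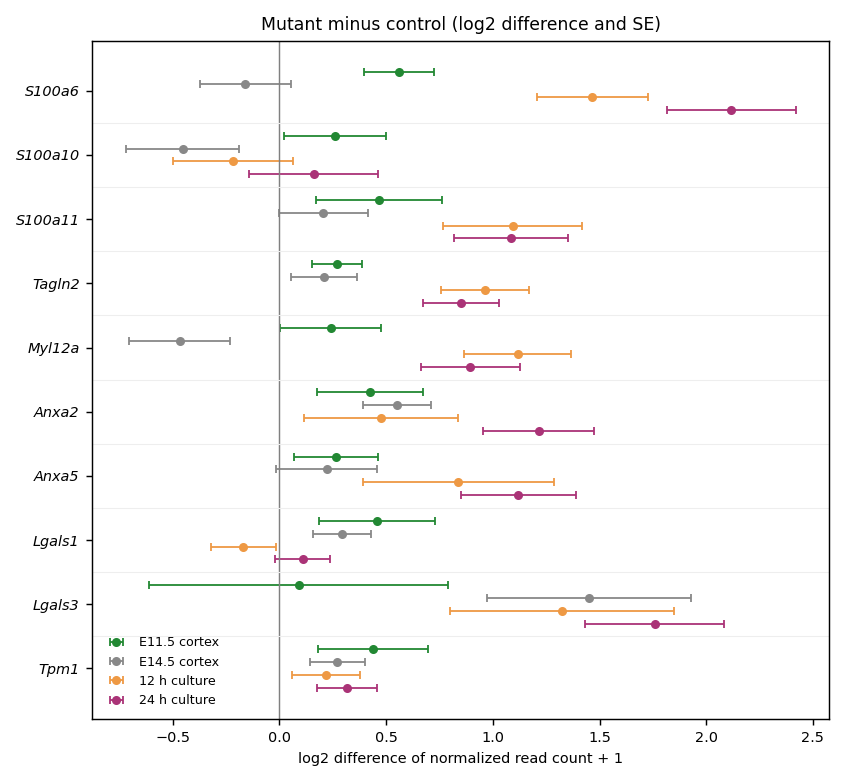
Mutant minus control difference (log2 of normalized read count + 1) and its SE for each gene in E11.5 cortex, E14.5 cortex and the 12 h and 24 h cultures, 3 against 3 libraries. S100a6 lies at 0.56, -0.16, 1.47 and 2.12 in that order, and Lgals1 within 0.5 of 0 throughout.

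The E14.5 and 24 h genotype differences, from which the set was chosen, are given without a test. At E14.5 they ran from -0.47 for Myl12a and -0.45 for S100a10 to 0.55 for Anxa2 and 1.45 for Lgals3, with S100a6 at -0.16 (SE 0.21). Anxa2, Lgals1, Lgals3 and Tpm1 were higher in mutants without overlap, as were 7.02% of all genes. The microglial sum (839 to 1069 in mutants against 434 to 536 in controls) and the neuronal sum (28333 to 29660 against 35881 to 37868) did not overlap either at E14.5, and their part in these differences was not tested. With a term for sex the E14.5 difference was 0.25 for Anxa2 and 0.93 for Lgals3. At 24 h all 10 were positive, from 0.11 for Lgals1, 0.16 for S100a10 and 0.32 for Tpm1 to 1.22 for Anxa2, 1.76 for Lgals3 and 2.12 for S100a6 (SE 0.30), and 7 had no overlap, as had 7.15% of all genes. Over all 13300 genes of this contrast limma called 36, 0 with a term for the Gm42418 share and 4 with one for sex. In these embryos sex nearly followed genotype, and the part of sex and of the Gm42418 share in the 24 h values was not tested. The difference between the 24 h and E14.5 genotype effects was 2.28 for S100a6 (SE 0.43) and 1.36 for Myl12a (SE 0.37), and -0.18 (SE 0.18) for Lgals1. At 24 h further marker sums were higher in mutants without overlap, those of mesenchyme (370 to 441 against 258 to 310.1), of pericytes and smooth muscle (74.2 to 127.5 against 20.2 to 50.01) of apical progenitors (12079 to 13278 against 9389 to 10593), of intermediate progenitors (1633 to 1903 against 1416 to 1596) and of liver (114.6 to 411 against 1.69 to 6.83). The neuronal sum was lower without overlap (24472 to 29851 against 30465 to 36221). Their part in the 24 h values was not tested.

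Between E11.5 and E14.5 most of these genes had lower means, in both genotypes. In controls the difference, E14.5 minus E11.5, was -1.35 for Lgals1 (SE 0.28), -1.34 for S100a11 (SE 0.23), -1.16 for Tpm1 (SE 0.26), -1.03 for Anxa5 (SE 0.24), -0.94 for Myl12a (SE 0.24), -0.75 for Anxa2 (SE 0.26) and -0.57 for S100a10 (SE 0.26). S100a6 and Tagln2 stayed near 0 (0.05, SE 0.17, and 0.02, SE 0.13). Lgals3 was below the filter of a mean of 10 there. In S100a11, Myl12a, Anxa5, Lgals1 and Tpm1 the E14.5 values all lay below the E11.5 values. The share of all genes that did so was not counted, and nothing is read from the number of members.

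In mutants the difference was -1.65 for Myl12a (SE 0.23), -1.60 for S100a11 (SE 0.27), -1.51 for Lgals1 (SE 0.13), -1.33 for Tpm1 (SE 0.13), -1.28 for S100a10, -1.07 for Anxa5, -0.67 for S100a6 (SE 0.20) and -0.62 for Anxa2 (SE 0.15). These genes lay lower at E14.5 without overlap, and here too the share of all genes that did so was not counted. Tagln2 was at -0.04 (SE 0.14) and Lgals3 at 1.06 (SE 0.64). Whether the course of S100a6 differed between genotypes was not tested.

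The age contrast ran beside a fall of mesenchyme and meninges RNA and a rise of neuronal RNA. Of 8 mesenchyme markers, 6 were lower and 1 higher at E14.5 in controls, and 7 lower and 1 higher in mutants, while all 8 neuronal markers rose in both. Control F and mutant B, lowest in mesenchyme RNA at E11.5, were also low for S100a11 and Lgals1 within their groups. The part of mesenchyme in the age differences was not tested.

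**Figure D3:**
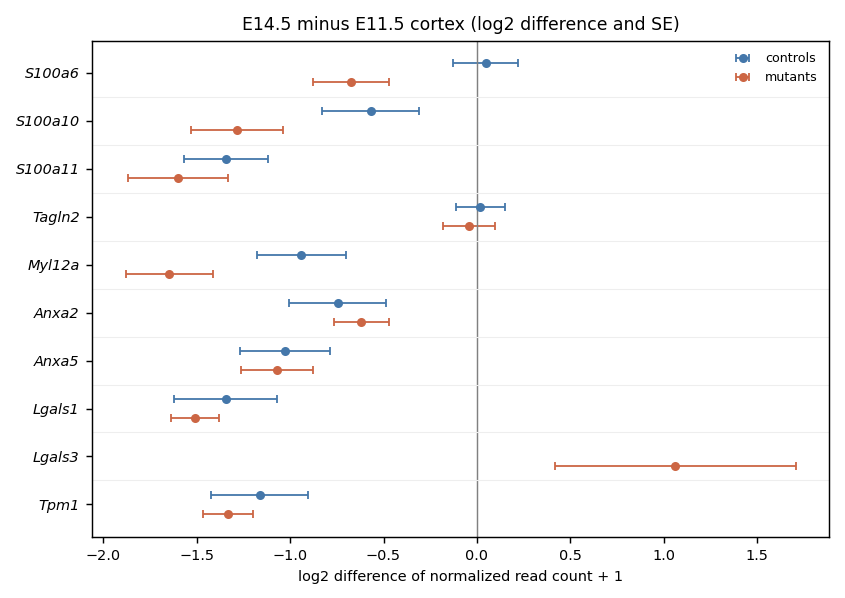
E14.5 minus E11.5 difference (log2 of normalized read count + 1) and SE in control and mutant cortex, 3 against 3 libraries each; Lgals3 was below the filter in controls. Tagln2 lies near 0 in both genotypes, and Lgals1, S100a11, Tpm1, Myl12a and Anxa5 lie below -0.9 in both.

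Other genes of the same families, which the choice did not use, were counted in the same age fits. Over all genes limma called 18.8% lower and 18.3% higher of 13605 in controls, and 20.9% and 18.4% of 13647 in mutants. Of 11 tested actins and actin crosslinkers, 9 were lower at E14.5 in controls and 9 in mutants, with medians of -0.84 and -1.02 against -0.08 and -0.07 over all genes. Zyx, the focal adhesion protein zyxin, fell by 1.11 in controls (SE 0.17, adjusted p = 0.000773 by limma), and Actn1, an actin crosslinker, by 1.20 in mutants (SE 0.16, adjusted p = 0.000136 by limma). Of 7 tropomyosins, transgelins and calponins, 5 fell and 1 rose in controls and 4 fell and 1 rose in mutants. Cnn2, a calponin, fell by 2.45 in controls and by 2.62 in mutants.

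Of the 7 tested genes of SRF, MRTF and YAP, 4 fell in controls and 4 in mutants. Yap1 fell by 1.46 (SE 0.15) and 1.60 (SE 0.27). Among 7 tested YAP targets 2 fell and 1 rose in controls and 3 fell in mutants, with Ajuba falling by 1.32 and 1.43. The myosin II chains split, with 2 higher and 2 lower of 7 in each genotype, and Myh9, a heavy chain that Myl12a protein serves, fell by 0.79 in controls and 0.82 in mutants. Few other family members were tested: 1 of 4 other S100 genes rose and 1 fell in controls and 0 of 3 changed in mutants, 1 of 3 and 3 of 5 other annexins fell, and 1 of 4 other galectins, Lgalsl, rose in each genotype, by 1.08 and 0.96.

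The move from E14.5 cortex into culture, which shares the E14.5 and 24 h libraries with the choice of genes, is described without a test for the members. Lgals1 stood highest above cortex, by 3.29 (SE 0.14) in controls and 2.83 (SE 0.15) in mutants at 12 h and by 3.47 and 3.29 at 24 h. Lgals3 was higher by 1.59 to 2.18, S100a10 by 0.77 to 1.47 and Tpm1 by 0.52 to 0.61 in the 4 contrasts. All 4 were above cortex in both genotypes. S100a6 was higher by 0.82 and 0.34 in controls (12 and 24 h) and by 2.45 and 2.61 in mutants, and Tagln2 by 0.16 and 0.23 in controls and 0.91 and 0.87 in mutants. Myl12a was lower in control cultures, by -1.04 and -0.90, and higher in mutant cultures, by 0.55 and 0.46. S100a11 had the same arrangement of signs, at -0.47 and -0.54 in controls and 0.42 and 0.34 in mutants.

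Cultures lay above cortex without overlap for 5 of 10 members in controls and 7 in mutants at 12 h, against 17.3% and 15.1% of all genes, and for 3 and 7 at 24 h, against 22.3% and 16.5%. Since these values share libraries with the choice, nothing is read from those counts. The 12 and 24 h contrasts of a genotype share its E14.5 libraries. Endothelial and mesenchyme sums dropped in culture as given above, in both genotypes. The erythroid sum did not: it was 37786 to 44830 in E14.5 cortex, 68443 to 149797 at 12 h and 44871 to 78196 at 24 h. The sum of pericyte and smooth muscle markers was 513 to 755 in cortex and 20.2 to 127.5 in culture. Anxa5 was below cortex by 1.18 and 0.67 on the log2 scale in controls. In mutants it differed from cortex by -0.56 at 12 h and 0.23 at 24 h, with overlap at both times. From 12 to 24 h the members differed by -0.88 (Anxa2) to 0.51 (Anxa5) in controls and by -0.14 (Anxa2) to 0.80 (Anxa5) in mutants.

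**Figure D4:**
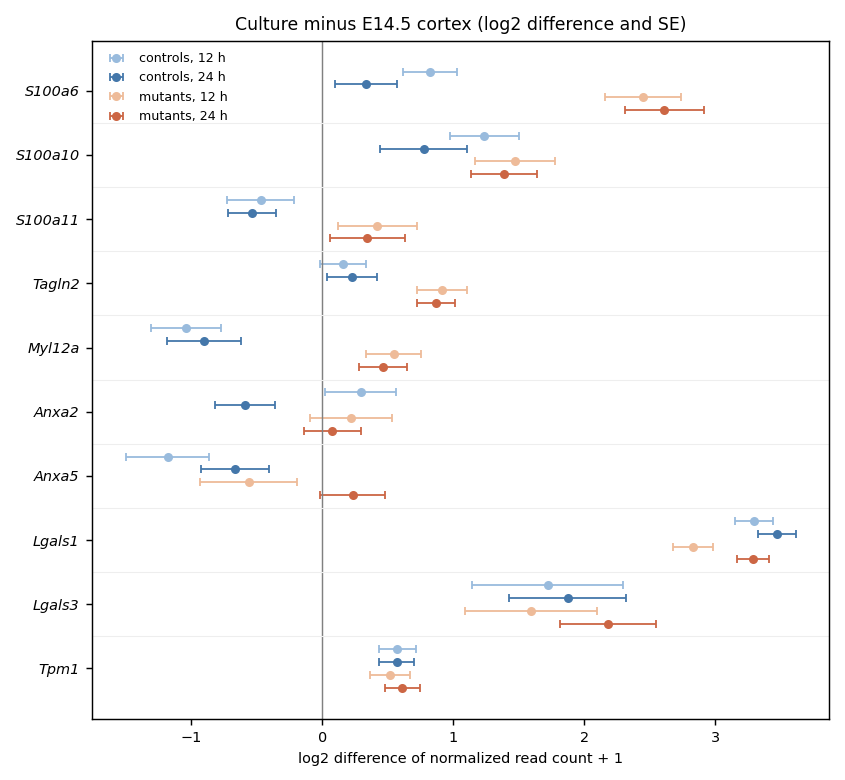
Culture minus E14.5 cortex difference (log2 of normalized read count + 1) and SE at 12 and 24 h in controls and mutants, 3 against 3 libraries each. For S100a6, Tagln2, Myl12a, S100a11, Anxa5 and S100a10 the mutant points lie to the right of the control points at both times. For Lgals1, Lgals3, S100a10 and Tpm1 the 4 points lie within 0.8 of each other.

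Of the other genes, which were not used to choose the set, the 24 h contrast called 14.8% higher and 15.0% lower of 13526 genes in controls, and 7.37% and 8.96% of 13633 in mutants. These fits set culture against cortex of the same embryos and took their libraries as independent. Zyx rose by 1.07 in controls and 1.04 in mutants, and of 11 actins and crosslinkers 1 rose and 1 fell in controls and 2 rose in mutants. Myl9, the smooth muscle type regulatory light chain, fell by 3.76 in controls and fell by 2.27 in mutants, and Mylk, the kinase that phosphorylates such chains, fell by 2.62 and by 2.31. Wwtr1, the YAP partner TAZ, fell by 1.65 and 0.88. Among YAP targets 2 of 7 fell in controls and 1 rose and 2 fell in mutants, with Axl falling by 1.83 and 1.79 and Cyr61 rising by 1.85 in mutants. Of 3 other S100 genes 3 fell in controls and 0 changed in mutants, and Lgals9 was the 1 of 3 other galectins that fell in each. Tagln, the smooth muscle transgelin related to Tagln2, rose by 1.95 in mutants (SE 0.54, adjusted p = 0.0278 by limma). Whether these changes differed between genotypes was not tested for each gene. With a term for the share of reads on Gm42418 the called genes fell from 2226 to 110 in mutants (74 higher and 36 lower) and from 4023 to 3221 in controls. Of the genes named here, Zyx, Myl9, Mylk, Wwtr1, Axl and Lgals9 were then still called in controls, and none in mutants, where their adjusted p by limma ran from 0.131 (Axl) to 0.797 (Mylk), with Cyr61 at 0.193 and Tagln at 0.411.

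The genotype effects at E11.5 and 12 h called none of these list genes, with limma. By mean, other annexins stood at a median of 1.31 at 12 h over 5 tested genes, against -0.02 over all genes, with Anxa3 at 2.44 (SE 0.67, adjusted p = 0.913 by limma), and YAP targets at 0.59 over 7. The summed normalized read count of all 10 listed other annexins overlapped at 12 h, at 191 to 311 in controls and 230 to 445 in mutants.

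The genes whose pattern over the 24 libraries lay closest to S100a6, by Pearson correlation of log2(normalized read count + 1) among 13678 genes, were Col8a1 (0.891), Bend4 (0.865), F5 (0.846), Myof (0.844) and Pcolce2 (0.837). Col8a1 encodes a collagen, F5 coagulation factor V, Myof the membrane repair protein myoferlin and Pcolce2 an enhancer of procollagen processing. Closest to Tagln2 were Col8a1 (0.878), Lmna (0.818) and Myof (0.817), and to Myl12a Smu1 (0.956), Actn1 (0.928) and Cd164 (0.927). Col8a1 and Myof were thus on both the S100a6 and the Tagln2 list. Among the members the highest correlations were those of S100a11 with Myl12a (0.890) and of S100a6 with Tagln2 (0.885), and the lowest was that of Myl12a with Lgals3 (-0.372). These values include the differences between stage and genotype groups. By deviations from group means S100a11 with Myl12a was at 0.551 and S100a6 with Tagln2 at 0.436. The highest was then Lgals1 with Tpm1 (0.919, against 0.353 over the 24 libraries). The libraries share embryos and choroid plexus or mesenchyme content, so these values describe the 24 libraries only. Col8a1 was 105 to 641 in the mutant cultures and 12.1 to 116 in the control cultures.

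**Figure D5:**
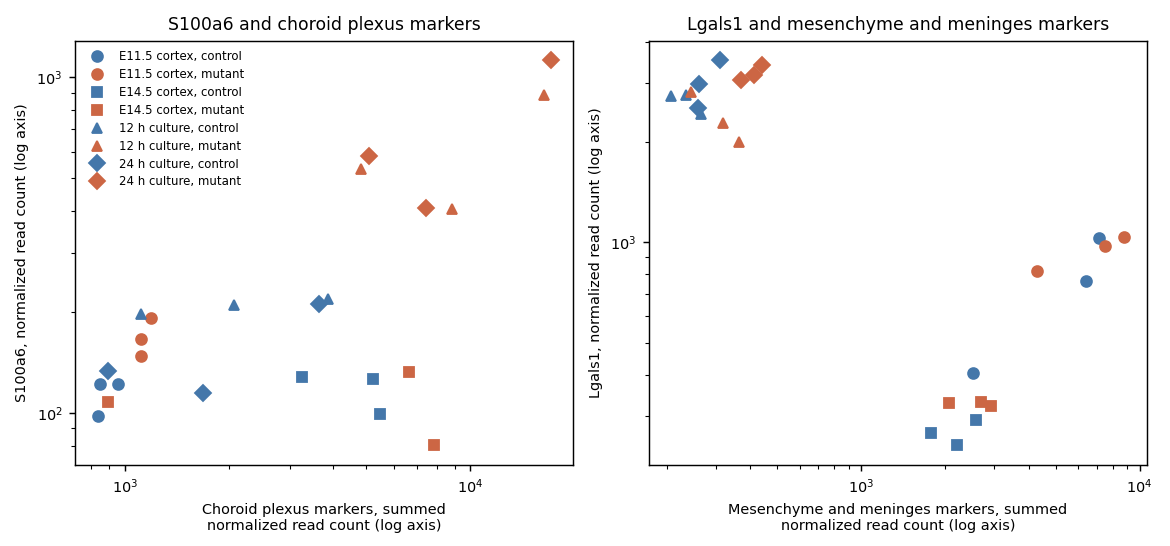
S100a6 against the summed choroid plexus markers, and Lgals1 against the summed mesenchyme and meninges markers, in the 24 libraries (normalized read counts, both axes log), with marker shape for stage and colour for genotype. In cultures S100a6 is highest where the choroid plexus sum is highest, E14.5 cortex has sums up to 7860 with S100a6 at 80.2 to 132, and Lgals1 is highest in cultures, where the mesenchyme sum is at most 441.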

How the data were processed

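RNA of 24 libraries (3′ tag sequencing, QuantSeq) was measured. The authors aligned reads to GRCm38 with TopHat2 2.0.10 (using SAMtools 0.1.19 and Bowtie 1.0.0), counted them on GENCODE genes with HTSeq 0.6.1 by strand, and deposited counts divided by a size factor, a signal here called normalized read count. In all 24 libraries the values above 0 were, within rounding, whole multiples of what 1 read is worth. This gave whole reads for count tests in 23 libraries. Control D was left out of the count tests, although its 20486 values above 0 were whole multiples too. Samples were grouped by the labels; the description of mutant 6's cortex names E11.5, and the title's E14.5 was used.

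Differences were fitted with limma 3.58.1 (R 4.3.3, trend) on log2(value + 1). Only genes averaging 10 or more across the samples of a comparison entered, p-values were adjusted over all of them by the Benjamini-Hochberg method, and the threshold was 0.05; folds of low genes are understated. edgeR 4.0.16 and DESeq2 1.42.0 served as alternatives, and the fit was tested on simulated data. The p-values of the main genotype and age fits rest on embryos, 3 a group. The main culture fits and the fit on all 24 libraries took libraries of the same embryo as independent. Same-numbered E14.5 libraries came from the same embryo; over 18 such pairs the deviations from group means correlated at -0.11 to 0.24 (median 0.14, 12 pairs over 0.1). Named genes were all 10 members, the closest 5 genes to S100a6 and 3 each to Tagln2 and Myl12a, and up to 2 genes of smallest p per list. Cep135, Ttr, Otx2, Kl, Myl12b and Gm42418 were named because results turned on them. A test of the members in the age contrast had been planned and is not given, since its E14.5 libraries took part in the choice. The members and gene lists were chosen with earlier results of these data known. One further gene list is not reported here.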

Additional observations from a re-analysis of the deposited data

How the results depend on the processing

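Under all alternatives to the 2 tested comparisons, 318 of 328 member values kept their sign and their side of the threshold, 0 lost a call, 5 gained one (S100a6 and Tagln2 at 12 h) and 5 changed sign, all of them uncalled values. The sign changes at 12 h came with a term for embryo sex: 0.29 for S100a10, -0.34 for Anxa2 and -0.041 for Tpm1. The same term took Lgals3 from 1.32 to 0.29 and Anxa5 from 0.84 to 0.00070. Leaving out 1 library gave, in the E11.5 genotype effect, -0.0069 to 0.42 for S100a10 and -0.15 to 0.57 for Lgals3.

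Counts over all genes moved most. The 2 genes called at E11.5 became 17 with no filter, 1 with a mean of at least 50, 0 with quantile normalization, 1 with TMM rescaling, 8 with all 24 libraries, 0 with a term for the Gm42418 share, 4 with one for sex, 0 with the litter, as read from title prefixes, as a block, and 0 to 8 without 1 library. The 0 at 12 h became 1 with a pseudocount of 5, 9 with no filter, 1 with quantile normalization, 9 with DESeq2, 77 with all 24 libraries, 1 with the Gm42418 term, 182 with the sex term, and 0 to 7 without 1 library. Members called at 12 h became 1 with no filter, 2 with DESeq2 and 2 with all 24 libraries. edgeR and DESeq2 were not run where control D entered. With the embryo as a replicate block S100a6 in mutants was 2.45 above cortex at 12 h and 2.61 at 24 h, and 2.28 in the difference of genotype effects. In their main fits the 2 tested genotype comparisons of the members held 1 library per embryo. The main culture fits, used to count other genes, set libraries of the same embryos against each other without a block. The fit on all 24 libraries also held several libraries of each E14.5 embryo without a block for it. With the Gm42418 term the 12 h mutant value of S100a6 became 1.95. Of 1869 described values 28 moved by over 1 SD. In the 24 h culture effect the same term took the genes called from 2226 to 110 in mutants and from 4023 to 3221 in controls. The cause of these changes was not tested. Lgals3 was too low in control cortex to be tested there.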
